A study of Mus musculus with 12 samples.

Results

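The genes described here are 10 transcripts of lipid handling, matrix and lysosomal proteins that are known from disease-associated microglia: Apoe, Spp1, Lpl, Cst7, Gpnmb, Lgals3, Cd9, Ch25h, Igf1 and Fabp5. They were taken by symbol, as a named set, and all 10 were among the 24328 genes of the count table and among the 12695 that passed the filter on low counts. RNA was sequenced from microglia that were sorted by flow cytometry from the brains of wild-type (WT) Balb/c mice, with 4 mice in each of 3 groups. Allogeneic and syngeneic recipients were both lethally irradiated and given 5000000 bone marrow cells with 300000 T cells, from genetically different or matched donors, and were killed by perfusion on day 14. The labels call that day the peak stage of GvHD, graft-versus-host disease, in which T cells of the donor attack tissues of the host. Control mice were labelled untransplanted, and nothing in the labels says whether they were irradiated or on which day they were killed. Syngeneic mice thus share irradiation, marrow and T cells with allogeneic mice and differ in the match of donor and host. Control mice differ from both in marrow and T cells together, and in irradiation too if they had none. For donor strain, age and sex, nothing is given in the sources used here, and the gates of the sort are not stated.

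Microglia are the resident macrophages of the brain. In mouse models of neurodegeneration, demyelination and ageing, some of them lower their homeostatic genes, such as P2ry12 and Tmem119, and raise a set of genes for lipid uptake, lysosomal digestion and secreted proteins, a state partly under the control of the lipid receptor TREM2. Apoe, Lpl, Fabp5 and Ch25h act on lipids. Apoe encodes the apolipoprotein that carries cholesterol between brain cells, Lpl the lipase that frees fatty acids from lipoprotein triglycerides, Fabp5 a carrier of fatty acids inside the cell, and Ch25h the interferon-inducible enzyme that turns cholesterol into 25-hydroxycholesterol. Spp1, Lgals3 and Igf1 encode secreted proteins. Spp1 encodes osteopontin, a matrix protein bound by integrins and CD44, Lgals3 the sugar-binding lectin galectin-3, and Igf1 a growth factor that supports myelin and neurons. The others sit in lysosomes or membranes: Cst7 encodes cystatin F, an inhibitor of lysosomal cysteine proteases, Gpnmb a lysosomal and surface glycoprotein, and Cd9 a tetraspanin that organises membrane proteins.

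Promoter sequences of 8 of the 10 genes were at hand (RefSeq, build GRCm38.p6), and windows of 300 bases, 250 before and 50 after the start site, were searched on both strands for motifs of factors that act in macrophages. The 4 genes with a match are shown. Cst7, Gpnmb and Spp1 were highest in allogeneic libraries, and Cst7 and Spp1 also stepped up in syngeneic against control mice. Igf1 was highest in syngeneic libraries. Each line runs 5′ to 3′ and ends 20 bases after the start site, and capitals mark the motif. The windows are chr2:150570165-150570434 (+) for Cst7, chr6:49036268-49036537 (+) for Gpnmb, chr10:87860861-87861130 (+) for Igf1 and chr5:104434861-104435130 (+) for the upstream of the listed starts of Spp1.
Cst7: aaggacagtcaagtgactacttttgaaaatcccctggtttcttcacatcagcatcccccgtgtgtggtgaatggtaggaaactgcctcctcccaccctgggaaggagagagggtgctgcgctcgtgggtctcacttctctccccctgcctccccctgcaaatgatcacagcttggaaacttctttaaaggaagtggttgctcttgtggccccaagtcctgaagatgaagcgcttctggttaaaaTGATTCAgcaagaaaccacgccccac
Gpnmb: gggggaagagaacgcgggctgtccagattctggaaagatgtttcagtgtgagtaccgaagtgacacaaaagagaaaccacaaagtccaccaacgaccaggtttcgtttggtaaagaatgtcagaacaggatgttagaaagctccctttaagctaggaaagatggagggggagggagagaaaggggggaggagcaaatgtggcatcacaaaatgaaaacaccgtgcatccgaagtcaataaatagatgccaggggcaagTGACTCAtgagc
Igf1: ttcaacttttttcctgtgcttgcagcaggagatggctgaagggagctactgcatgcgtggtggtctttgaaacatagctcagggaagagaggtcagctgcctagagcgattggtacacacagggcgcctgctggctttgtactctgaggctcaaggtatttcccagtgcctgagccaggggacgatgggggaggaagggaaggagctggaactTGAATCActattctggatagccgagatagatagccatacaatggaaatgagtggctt
Spp1: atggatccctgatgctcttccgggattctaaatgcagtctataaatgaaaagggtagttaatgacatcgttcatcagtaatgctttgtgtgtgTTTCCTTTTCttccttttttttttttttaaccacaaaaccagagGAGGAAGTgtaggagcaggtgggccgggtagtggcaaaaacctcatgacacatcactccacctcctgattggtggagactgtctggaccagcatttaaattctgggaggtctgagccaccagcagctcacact
The capitals in Cst7, Gpnmb and Igf1 are matches to TGANTCA, a looser pattern than the AP-1 motif, which 7.81% of 32851 promoter windows hold. The AP-1 motif has C or G as its middle base, as Gpnmb (TGACTCA) has. Cst7 (TGATTCA) and Igf1 (TGAATCA) have T and A there. In Spp1 the first capitals are a match on the opposite strand to the interferon-response pattern of GAAA repeated after 2 bases (3.44% of windows), and the second are the PU.1 motif GAGGAAGT (3.2% of windows). No window of the 8 genes held TTCNNNGAA (the GAS element, 8.3%), CACGTG (the E-box that MiT factors bind, 7.15%) or AGGTCA repeated after 4 bases (a perfect LXR element, 0.0152%). A match describes these letters only, and Igf1 matches the same loose pattern as Cst7 and Gpnmb although its values ran differently.

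Library totals were 35559202 to 42641198 counts in allogeneic, 36422729 to 46126118 in syngeneic and 32652208 to 45439607 in control libraries. Levels are CPM, counts in every 1000000 of a library total that was rescaled with TMM (trimmed mean of M values) factors of 0.844 to 0.893, 1.002 to 1.021 and 1.096 to 1.159 in these groups. The sorted cells carried microglial transcripts throughout. P2ry12, the purine receptor of resting microglia, averaged 9078, 17282 and 12076 CPM in allogeneic, syngeneic and control libraries, and Tmem119 averaged 1138, 1342 and 3969.5 CPM. No 2 libraries were alike within sampling noise, and libraries of a group had Spearman correlations of 0.975 to 0.984. Below, values in a row are replicates 1 to 4, a mean comes with its SD (n = 4 mice), a log2 fold change with its SE, and "rose" or "fell" means an adjusted p under 0.05 in edgeR's quasi-likelihood test over all 12695 genes. RNA came from bulk samples, so more cells of a type and more RNA per cell cannot be told apart in any value.

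In allogeneic against syngeneic mice, which addresses what GvHD adds to irradiation and transplantation, 8 of the 10 genes rose and 0 fell: Apoe, Spp1, Lpl, Cst7, Gpnmb, Lgals3, Cd9 and Ch25h. Igf1 and Fabp5 did not pass the test. Of all genes tested, 16.5% were called (10.1% higher and 6.38% lower), against 8 of these 10. The set was chosen with earlier results of these data known, so contrasts with all genes, here and below, are descriptions. The median log2 fold change of the 10 was 1.69, and that of all genes was -0.01. Setting Gpnmb to the bound given below leaves this median and those of the 2 comparisons with control mice unchanged. All 10 genes separated the groups without overlap, 9 higher and Igf1 lower, against 20.7% of all genes (12.6% higher and 8.1% lower). At an unadjusted p under 0.05 the count of lower members was 1 rather than 0, and it was also 1 by DESeq2 and by limma-voom, in each case Igf1.

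Syngeneic and control mice differ in transplantation, and in irradiation too if control mice had none. In syngeneic against control mice 7 members rose (Spp1, Lpl, Cst7, Lgals3, Cd9, Ch25h and Fabp5) and 1, Gpnmb, was called lower on the counts of 1 library. Apoe and Igf1 did not pass. Here 52.1% of all genes were called (26.4% higher and 25.6% lower), against 8 of these 10 (7 higher). Their median log2 fold change was 1.68 and that of all genes -0.03. For 7 genes the groups did not overlap, all higher, against 50.1% of all genes (24.6% higher and 25.5% lower). These 7 include Igf1, which was not called, and leave out Fabp5, which was. Allogeneic against control mice gave 9 that rose and 0 that fell, with Igf1 not called, a median of 3.28 against -0.07 over all genes, and 57.3% of all genes called (28.2% higher and 29.1% lower). No member was lower there at an unadjusted p under 0.05, by DESeq2 or by limma-voom. In that comparison 9 genes did not overlap, all higher, against 53.8% of all genes (26.2% higher and 27.7% lower).

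The comparisons share libraries, so their values are given side by side and not as separate support. Spp1, Lpl, Cst7, Lgals3, Cd9 and Ch25h (6 of 10) stood in the order allogeneic above syngeneic above control with no overlap between any groups, and 6.88% of all genes did so. Scaling to library totals without TMM factors moved the median of all genes to -0.22, -0.20 and -0.44 in the comparisons above. It turned the calls over all genes to 844 higher and 2108 lower in allogeneic against syngeneic mice (1288 and 810 with TMM), to 2723 and 3968 in syngeneic against control mice (3357 and 3253), and to 2453 and 5259 in allogeneic against control mice (3576 and 3697). The members' counts of higher calls stayed at 8, 7 and 9 under that scaling. With the GC and length offset used below, those counts were 8, 5 and 8. Cd9 and Fabp5 were then not called in syngeneic against control mice, and Cd9 was not called in allogeneic against control mice.

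**Figure D1:**
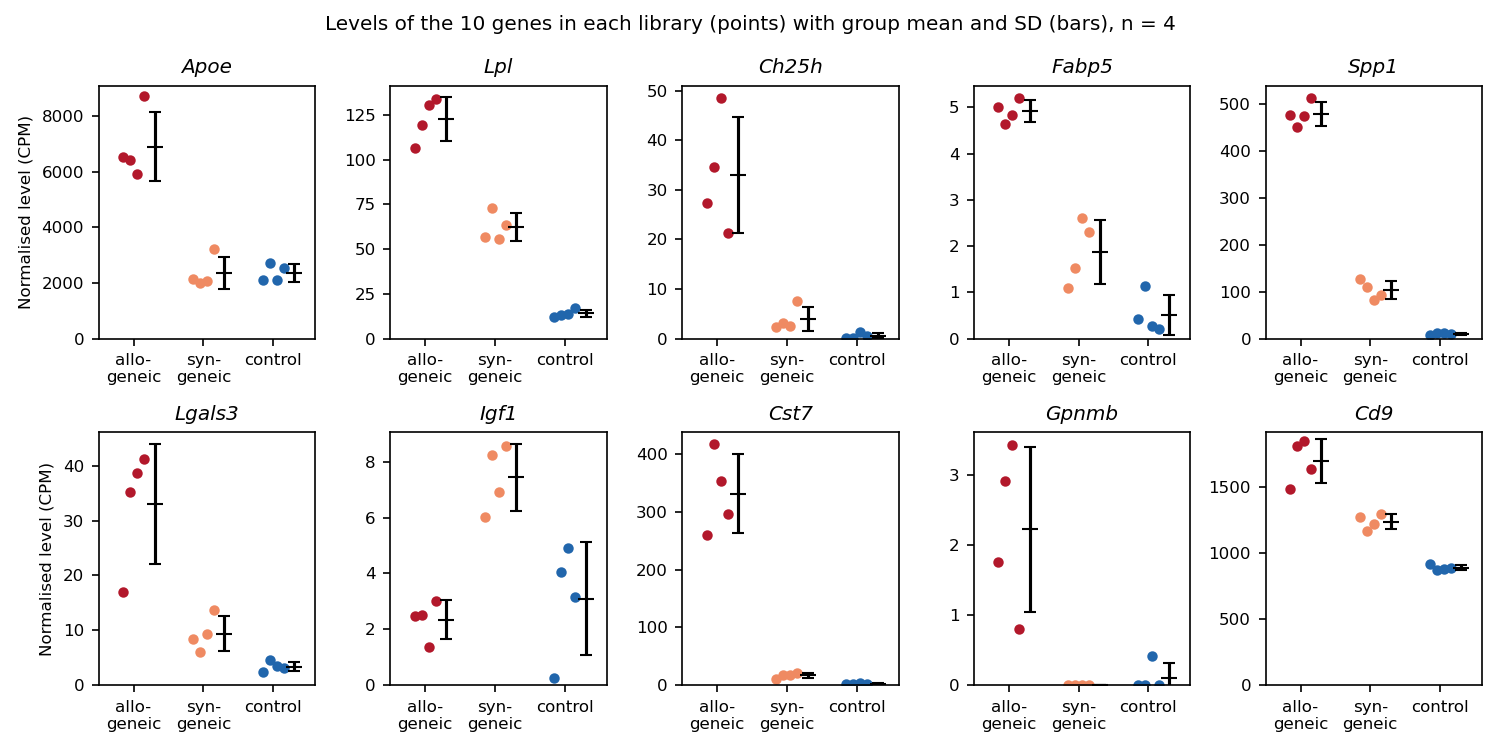
Level of each of the 10 genes in CPM (linear axis from 0, its own scale per gene) in allogeneic, syngeneic and control libraries. Points are libraries and bars are the mean ± SD of 4 mice. In 9 genes every allogeneic library lay above all others, while all 4 syngeneic libraries of Igf1 (6.02 to 8.59 CPM) lay above the allogeneic ones (1.37 to 3.0 CPM).

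Among the lipid genes, Apoe was the most abundant, and it was called in both comparisons of allogeneic mice but not between syngeneic and control mice. It stood at 6525, 6415, 5911 and 8727 CPM in allogeneic, at 2139.7, 1987, 2052 and 3207 CPM in syngeneic and at 2086, 2699.7, 2092 and 2531 CPM in control libraries. Every allogeneic library lay above every other one, and the syngeneic and control libraries overlapped, with syngeneic replicate 4 well above the other syngeneic mice. Apoe rose against syngeneic mice by 1.56 ± 0.17 (edgeR adjusted p = 1.8e-05) and against control mice by 1.55 ± 0.17 (edgeR adjusted p = 3.2e-06). Mean levels were 6895 ± 1250.3 CPM in allogeneic, 2346 ± 577 CPM in syngeneic and 2352 ± 312 CPM in control mice. Syngeneic against control mice differed by -0.00 ± 0.16 (95% interval -0.32 to 0.31, edgeR adjusted p = 0.989), so a change of the size seen in allogeneic mice lay outside that interval. Without syngeneic replicate 4 the difference was -0.19 (adjusted p = 0.213). Astrocytes are the main source of ApoE in the resting brain, and summed astrocyte markers were 407 to 497 CPM in allogeneic, 326 to 386 in syngeneic and 273 to 346 CPM in control libraries. Of 11 tested astrocyte markers, 2 rose and 0 fell against syngeneic mice (1 lower at an unadjusted p under 0.05, 0 by DESeq2 and limma-voom), and 8 rose in syngeneic against control mice. Of that sum 403, 310.5 and 293 CPM were Slc1a3, while the astrocyte marker Gfap averaged 6.53, 2.10 and 0.303 CPM, and the part of these transcripts in the Apoe values was not tested.

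Lpl, the lipoprotein lipase, rose in both steps. It stood at 107, 119, 130.4 and 134 CPM in allogeneic, at 56.5, 72.8, 55.8 and 63.3 CPM in syngeneic and at 12.2, 13.2, 13.7 and 17.0 CPM in control libraries. The 3 groups were fully apart, and the spread within each was small. The log2 fold change was 0.98 ± 0.12 in allogeneic against syngeneic mice (edgeR adjusted p = 1.2e-05), 2.15 ± 0.13 in syngeneic against control mice (adjusted p = 2.3e-10) and 3.13 ± 0.13 in allogeneic against control mice (adjusted p = 7.1e-13).

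Ch25h, the source of the oxysterol that restrains viral entry and sterol synthesis, was nearly silent in control mice. Its level was 27.3, 34.5, 48.5 and 21.2 CPM in allogeneic, 2.38, 3.19, 2.52 and 7.63 CPM in syngeneic and 0.149, 0.186, 1.33 and 0.569 CPM in control libraries. Groups did not overlap, but syngeneic replicate 4 and control replicate 3 each lay apart from their group. Ch25h rose by 3.07 ± 0.53 against syngeneic mice (edgeR adjusted p = 4.9e-04), and syngeneic mice were higher than control mice by 2.76 ± 0.56 (adjusted p = 5.8e-04). Against control mice the allogeneic rise was 5.83 ± 0.61 (adjusted p = 5.1e-07). Leaving out control replicate 3 moved the values against control to 3.69 for syngeneic and 6.75 for allogeneic mice, both still called.

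Fabp5, the fatty acid carrier, was low in all libraries, and its clearest difference was between allogeneic and control mice. It had 5.01, 4.64, 4.83 and 5.21 CPM in allogeneic, 1.09, 1.53, 2.6 and 2.3 CPM in syngeneic and 0.421, 1.14, 0.274 and 0.207 CPM in control libraries. All allogeneic libraries lay above all others, and syngeneic replicate 1 was just below control replicate 2. Fabp5 rose against control mice by 3.27 ± 0.63 in allogeneic (edgeR adjusted p = 2.2e-04) and by 1.88 ± 0.60 in syngeneic mice (adjusted p = 0.0136). The difference between the transplanted groups, 1.39 ± 0.58 (95% interval 0.25 to 2.53), was not called (adjusted p = 0.119), although limma-voom (adjusted p = 0.0155) and the fit of these groups alone (0.0361) called it. The syngeneic call was lost with an offset for GC content and length (1.19, adjusted p = 0.112) and in the fit of those groups alone (adjusted p = 0.0599), and without control replicate 2 the values against control were 2.63 and 4.01 for syngeneic and allogeneic mice. That offset gave 2.26 in allogeneic against control mice. A processed pseudogene, Fabp5l2, is near-identical to Fabp5 and is not a row of the table, so reads of the copies may be mixed.

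Of the secreted proteins, Spp1 (osteopontin) had the largest rise of the 10 genes in syngeneic against control mice. It stood at 476, 449.6, 474 and 512 CPM in allogeneic, at 126, 109, 83.1 and 91.7 CPM in syngeneic and at 7.58, 12.1, 10.9 and 8.82 CPM in control libraries. The allogeneic libraries were close to each other, and no groups overlapped. Spp1 rose by 2.22 ± 0.13 against syngeneic mice (edgeR adjusted p = 9.5e-10), syngeneic mice rose by 3.38 ± 0.15 against control mice (adjusted p = 4.5e-12), and allogeneic mice by 5.60 ± 0.16 (adjusted p = 6.2e-15). With the GC and length offset the values against control were 2.79 and 4.81 for syngeneic and allogeneic mice, both called.

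Lgals3 (galectin-3), which binds damaged lysosomes and cell surface sugars, had 17.0, 35.1, 38.7 and 41.3 CPM in allogeneic, 8.31, 6.05, 9.28 and 13.8 CPM in syngeneic and 2.38, 4.54, 3.41 and 3.13 CPM in control libraries. Allogeneic replicate 1 was well below the other allogeneic mice and still above every syngeneic one. Lgals3 rose by 1.82 ± 0.30 against syngeneic mice (edgeR adjusted p = 1.9e-04), and in syngeneic against control mice it rose by 1.47 ± 0.30 (adjusted p = 4.4e-04). The full difference from control in allogeneic mice was 3.29 ± 0.32 (adjusted p = 5.6e-08).

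Igf1, the growth factor of the set, was the 1 member with lower values in allogeneic than in syngeneic mice. It stood at 2.49, 2.51, 1.37 and 3.0 CPM in allogeneic, at 6.02, 8.25, 6.93 and 8.59 CPM in syngeneic and at 0.248, 4.06, 4.9 and 3.15 CPM in control libraries. Every syngeneic library was above every allogeneic and control library, and control replicate 1 was far below the other control mice. The log2 fold change was -1.67 ± 0.57 in allogeneic against syngeneic mice (95% interval -2.78 to -0.55, edgeR adjusted p = 0.0538) and 1.27 ± 0.56 in syngeneic against control mice (0.16 to 2.37, adjusted p = 0.068), and neither was called. Allogeneic and control mice differed by -0.40 ± 0.56 (-1.50 to 0.70, adjusted p = 0.565). The first of these was called in 6 of 21 alternatives, with adjusted p from 0.00282 without control replicate 1 to 0.136 over all of them, and the second in 3, among them 1.82 by limma-voom (adjusted p = 0.0105). Summed choroid plexus markers were also highest in syngeneic mice, at 1414 to 2455 CPM, against 414 to 781 CPM in allogeneic and 21.2 to 142 CPM in control libraries, and Ttr made up most of them (446, 1312 and 53.7 CPM in allogeneic, syngeneic and control mice). Of 8 tested choroid plexus markers, 2 fell in allogeneic against syngeneic mice and all 8 rose in syngeneic against control mice. Their part in the Igf1 values was not tested.

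Among the lysosomal and membrane proteins, Cst7 (cystatin F) had the largest rise in allogeneic mice of the 9 genes detected in every group. It stood at 259.7, 417, 354 and 297 CPM in allogeneic, at 10.7, 18.0, 17.4 and 21.2 CPM in syngeneic and at 2.5, 2.57, 3.9 and 1.4 CPM in control libraries. The groups were far apart, and the allogeneic mice varied more among themselves than those of Spp1. Cst7 rose by 4.30 ± 0.27 against syngeneic mice (edgeR adjusted p = 2.4e-08), syngeneic mice rose by 2.68 ± 0.27 against control mice (adjusted p = 1.2e-06), and allogeneic mice by 6.98 ± 0.31 (adjusted p = 8.5e-11, 6.31 with the GC and length offset).

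Gpnmb was detected in all allogeneic mice and in almost no other. It had 56, 109, 120 and 27 counts, or 1.76, 2.91, 3.43 and 0.795 CPM, in allogeneic libraries, 0 counts in each of the 4 syngeneic libraries, and 0 counts in 3 control libraries with 21 counts (0.411 CPM) in control replicate 3. The allogeneic mean of 2.22 ± 1.18 CPM was at least 124-fold higher than the 0.0179 CPM that a total of 0 counts (3 counts over the group) allows in syngeneic mice, and 21.6-fold higher than the control mean. Without control replicate 3 it was at least 86.6-fold higher than the control floor. Gpnmb rose in allogeneic against syngeneic mice (edgeR adjusted p = 0.00607) and against control mice (adjusted p = 0.029). It passed the filter on low counts through its allogeneic libraries, with counts otherwise in control replicate 3 alone. Its higher calls, and its place in the counts of members above and below, are thus a description and no separate support. The second call was lost without control replicate 1, 2 or 4 or allogeneic replicate 2 or 3, with adjusted p up to 0.068. The lower call in syngeneic against control mice (adjusted p = 0.0416) rested on control replicate 3 alone and was lost in 11 of 19 alternatives, that mouse left out among them.

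Cd9, the tetraspanin, was abundant everywhere and had the smallest called differences. It stood at 1483, 1807, 1843 and 1635 CPM in allogeneic, at 1268, 1167, 1213 and 1291 CPM in syngeneic and at 912, 865, 880.1 and 884 CPM in control libraries. Its groups did not overlap, and the control libraries averaged 885 ± 19.4 CPM. Cd9 rose by 0.45 ± 0.07 in allogeneic against syngeneic mice (edgeR adjusted p = 5.9e-05), by 0.48 ± 0.07 in syngeneic against control mice (adjusted p = 7.7e-06) and by 0.93 ± 0.07 in allogeneic against control mice (adjusted p = 9.7e-10). With the GC and length offset the difference of syngeneic from control mice turned to -0.09 (adjusted p = 0.289) and that of allogeneic from control mice was 0.12 (adjusted p = 0.134), so both calls against control depend on that setting. The difference of allogeneic from syngeneic mice ran from 0.21 to 0.51 over all alternatives. It was called in each, with adjusted p up to 0.0375. A processed pseudogene, Cd9-ps, is not a row of the table, and reads of the copies may be mixed.

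The log2 fold change in syngeneic against control mice was subtracted, with its sign, from that in allogeneic against syngeneic mice in the same fit, gene by gene. Of the 10 genes, this step difference was positive and called for 3 (Apoe, Cst7 and Gpnmb) and negative and called for 3 (Spp1, Lpl and Igf1), against 29.9% of all genes called (14.4% and 15.5%). For Apoe the difference was 1.56 ± 0.29 (edgeR adjusted p = 0.00138) and for Cst7 1.63 ± 0.44 (adjusted p = 0.0124, 0.0664 by limma-voom). The steps of Spp1 and Lpl differed by -1.15 ± 0.22 (adjusted p = 7.4e-04) and -1.17 ± 0.21 (adjusted p = 4.1e-04), so both genes differed more between syngeneic and control mice than between allogeneic and syngeneic mice. For Igf1 the difference was -2.93 ± 0.93 (adjusted p = 0.0224), between 2 steps of opposite sign, -1.67 in allogeneic against syngeneic and 1.27 in syngeneic against control mice, and that call was lost without syngeneic replicate 2 (adjusted p = 0.0602) or 4 (0.0606). The call for Gpnmb (adjusted p = 0.0124), also between steps of opposite sign, was lost without control replicate 3. No difference between steps was called for Lgals3 (95% interval -0.65 to 1.34), Ch25h (-1.47 to 2.09), Cd9 (-0.25 to 0.20) or Fabp5 (-2.41 to 1.43), and only for Cd9 was that interval narrow. The step difference of Ch25h turned to -0.63 without control replicate 3 and was 1.37 without syngeneic replicate 4.

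**Figure D2:**
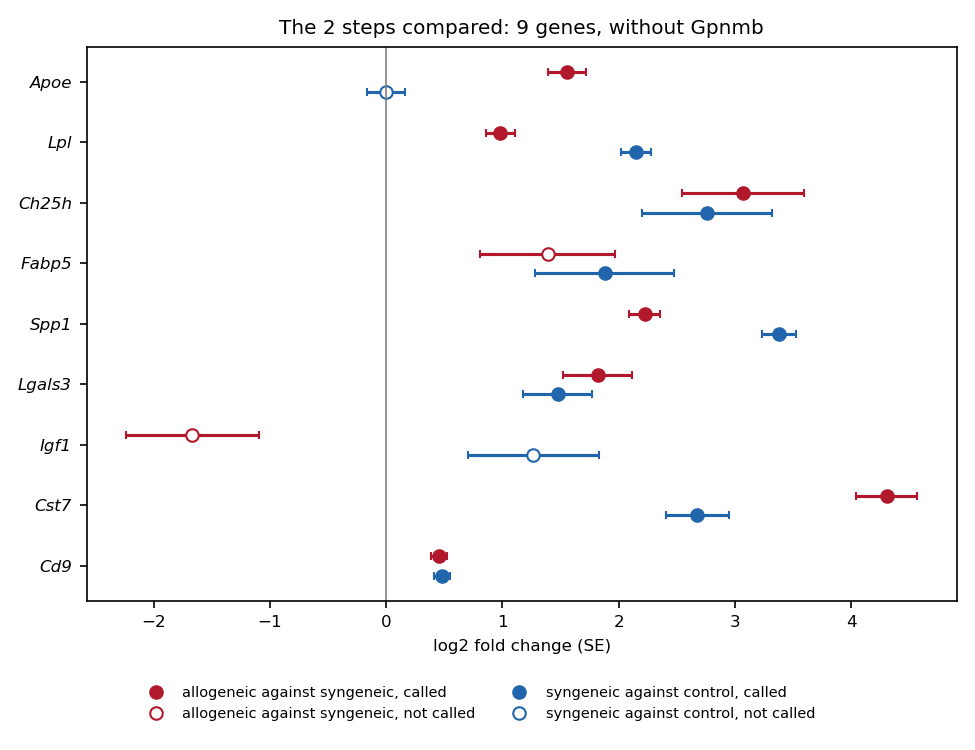
Log2 fold change with SE (horizontal axis) of 9 of the genes in allogeneic against syngeneic mice (red, upper of each pair) and in syngeneic against control mice (blue, lower). Filled points passed an adjusted p of 0.05 and open points did not. Gpnmb is left out because its syngeneic libraries held 0 counts. Apoe had a step of 1.56 to allogeneic mice and was not called in the other, Spp1 and Lpl had the larger step to syngeneic mice, and Igf1 was called in neither comparison.

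Levels between genes were compared as CPM per kb of the longest protein-coding transcript. In allogeneic mice Apoe (4897 CPM per kb) led, followed by Cd9 (1378), Cst7 (337) and Spp1 (317), then Lpl (29.8), Ch25h (23.7) and Lgals3 (23.3), with Fabp5 (4.99), Gpnmb (0.601) and Igf1 (0.332) last. Cst7 and Spp1 overlapped over libraries, as did Lpl, Ch25h and Lgals3, and Gpnmb and Igf1. In syngeneic mice the order of level per kb was Apoe (1666), Cd9 (1006), Spp1 (67.9), Cst7 (17.1), Lpl (15.1), Lgals3 (6.59), Ch25h (2.83), Fabp5 (1.90), Igf1 (1.06) and Gpnmb (0). The neighbours Cst7 and Lpl overlapped there, and each neighbouring pair from Lgals3 to Igf1 did. Control mice had Apoe (1671) and Cd9 (721) far above Spp1 (6.54), Lpl (3.41), Cst7 (2.63) and Lgals3 (2.37), and Fabp5 (0.518), Igf1 (0.438), Ch25h (0.403) and Gpnmb (0.0278) at the bottom. Lpl, Cst7 and Lgals3 did not differ there beyond their spread, nor did neighbours among the last 4. Cst7 thus ranked 3 in allogeneic, 4 in syngeneic and 5 in control mice. Summed over the 10 genes, levels in CPM were 9594 ± 1206 in allogeneic, 3785 ± 623 in syngeneic and 3272 ± 301 in control mice. Apoe made up 71.9%, 62.0% and 71.9% of that sum, and Apoe with Cd9 89.5%, 94.6% and 98.96%.

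**Figure D3:**
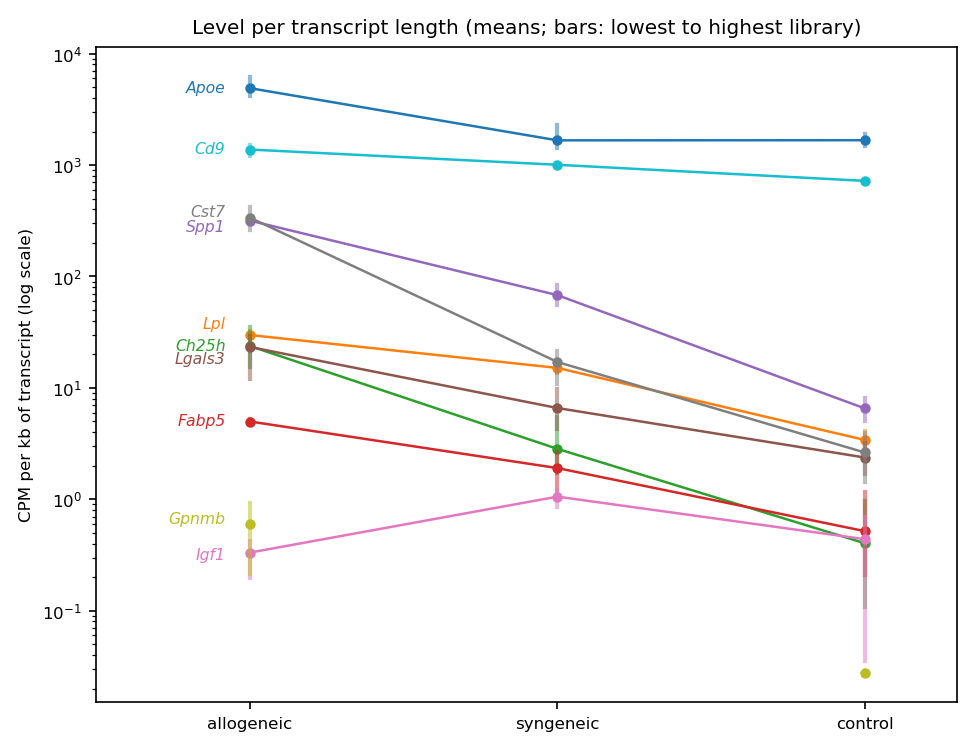
Level per transcript length in CPM per kb (log axis) of the 10 genes in allogeneic, syngeneic and control mice. Points are means of 4 mice and bars run from the lowest to the highest library. Gpnmb has no point in syngeneic mice, where it had 0 counts. Cst7 met Spp1 in allogeneic mice (337 and 317 CPM per kb) and lay below it in syngeneic mice (17.1 and 67.9).

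No mouse was the highest or the lowest of its group for all 10 genes. Allogeneic replicate 1 was the lowest of its group for Lpl, Cst7, Lgals3 and Cd9, and replicate 4 the highest for 6 genes, yet replicate 4 was also the lowest for Gpnmb and Ch25h. Syngeneic replicate 4 was the highest of its group for 6 genes (Apoe, Cst7, Lgals3, Cd9, Ch25h and Igf1), and control replicate 1 the lowest of its group for 6. Profiles over the 12 libraries were compared by the root mean square difference of log2 CPM, each gene centred on its own mean. Among the members, Apoe and Cd9 (0.516), Lpl and Lgals3 (0.556) and Lgals3 and Fabp5 (0.606) had the smallest differences, and Cst7 was closest to Ch25h (0.883). The value for Apoe and Cd9 is larger than the 0.388 by which Cd9 itself departed from a flat profile, so it is no sign of like profiles.

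The same measure over the 8910 genes whose mean log2 CPM was 2 or more named the nearest profiles, as a description. A gene's own root mean square departure from its mean, against which these distances are read, was 0.767 for Apoe, 0.388 for Cd9, 2.32 for Spp1, 1.32 for Lpl, 2.92 for Cst7, 2.63 for Ch25h, 1.39 for Lgals3, 1.51 for Fabp5, 2.51 for Gpnmb and 1.29 for Igf1. Nearest to Apoe were Siglecf (0.258), Arl5c (0.284) and Htatip2 (0.286), and nearest to Cd9 the tetraspanin Cd81 (0.0733), Pfdn1 (0.0785) and Ddost (0.0862). For Spp1 they were the interferon-stimulated genes Ifi27l2a (0.465), Ifi44 (0.466) and Slfn5 (0.472). Lpl lay nearest to Cpd (0.165), Bcl2a1b (0.223) and Anxa3 (0.251). Cst7 was nearest to Cfb (0.518), a complement factor, Vcam1 (0.547) and the chemokine gene Ccl2 (0.554), and Ccl2 (0.699), Cp (0.721) and Phf11a (0.745) were nearest to Ch25h. Lgals3 had Cfp (0.349), Lgals3bp (0.421), which encodes a binding partner of galectin-3, and B2m (0.431). Fabp5 had Capg (0.533), Lyz2 (0.562) and B2m (0.564). Gpnmb had the MHC genes H2-Ab1 (1.06), H2-Q2 (1.203) and H2-Q4 (1.24), and Igf1 had Rora (0.576), Mcm2 (0.837) and Jade1 (0.863). Set against the genes' own departures, the likeness was loose for both, and more so for Mcm2 and Jade1 with Igf1 than for H2-Ab1 with Gpnmb.

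Genes around Apoe and Lpl did not move as a block. Counts of list genes, here and below, stand beside 10.1% of all genes higher and 6.38% lower in allogeneic against syngeneic mice. In syngeneic against control mice those shares were 26.4% and 25.6%. Of 11 tested genes of lipoprotein particles and cholesterol efflux, 1 rose and 3 fell in allogeneic against syngeneic mice, with a median log2 fold change of -0.16 against -0.01 over all genes. Apoc1, the apolipoprotein gene beside Apoe, rose by 2.38 ± 0.25, with means of 66.5, 12.8 and 4.83 CPM in allogeneic, syngeneic and control mice. Abcg1, the cholesterol exporter and a target of LXR, fell by 0.46 and averaged 524, 722 and 1044 CPM in these groups. Of 7 lipoprotein receptor genes, 3 rose and 1 fell (median 0.60). Lrp1, a large receptor that takes up ApoE, fell by 0.58. Of 24 genes of fatty acid uptake and lipid droplets, 5 rose and 1 fell (median 0.10). The fatty acid translocase Cd36 averaged 294 CPM in allogeneic, 7.81 CPM in syngeneic and 0.901 CPM in control mice and rose by 5.24 ± 0.60, and Soat1, which esterifies cholesterol for storage, rose by 0.86 ± 0.11. Mgll, which degrades monoglycerides, fell by 1.13. All of these calls are edgeR's.

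In syngeneic against control mice 4 of the 11 lipoprotein particle genes rose and 2 fell (median -0.14), 3 of the 7 receptor genes rose and 0 fell (median 0.76), and 4 of the 24 fatty acid and droplet genes rose and 9 fell (median -0.21), beside -0.03 over all genes. At an unadjusted p under 0.05 the lower receptor genes were 1, as by DESeq2 and limma-voom. The lipases of stored triglyceride Pnpla2 and Lipe fell by 2.03 and 2.01, and Acsl4, which activates long-chain fatty acids, rose by 1.17 ± 0.10. Around Ch25h, 1 of 10 oxysterol and sterol sensing genes rose and 1 fell in allogeneic against syngeneic mice (median 0.07), and 1 rose and 5 fell in syngeneic against control mice (median -0.57). Gpr183, the receptor for oxysterols made from the product of Ch25h, averaged 260.4 CPM in allogeneic, 396 CPM in syngeneic and 615 CPM in control mice, and it fell by 0.60 and by 0.64 in the same comparisons. Cyp7b1, which makes that ligand, had 0 counts in all 12 libraries. Cyp27a1, another sterol hydroxylase, fell by 2.77 in syngeneic against control mice. In allogeneic against syngeneic mice Insig1, a brake on sterol synthesis, rose by 0.69 ± 0.18.

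Around Cst7, 8 of 11 other cystatins and lysosomal cysteine proteases rose and 1 fell in allogeneic against syngeneic mice (median 0.79), and 5 rose and 3 fell in syngeneic against control mice (median 0.11). The proteases cathepsin C (Ctsc), a known target of cystatin F, cathepsin S (Ctss) and cathepsin Z (Ctsz) rose by 1.51 ± 0.09, 0.91 ± 0.05 and 0.98 ± 0.07 in the first comparison. Of 8 galectins and galectin-3 partners, 5 rose and 1 fell in the first (median 0.36), and 6 rose and 2 fell in the second (median 0.72). Lgals3bp rose by 2.06 ± 0.14 and averaged 954 CPM in allogeneic, 229 CPM in syngeneic and 118 CPM in control mice. Lgals1, galectin-1, rose by 2.93 ± 0.11 in syngeneic against control mice, with means of 264, 183 and 24.0 CPM in the 3 groups in the same order. Of 15 tetraspanins and CD9 partners, 5 rose and 2 fell in the first comparison (median -0.02), and 5 rose and 5 fell in the second (median -0.09). Cd63 and Cd81 rose by 0.81 ± 0.08 and 0.44 ± 0.05 in allogeneic against syngeneic mice, and Cd37 fell by 1.23 in syngeneic against control mice.

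Of 10 receptors for osteopontin and GPNMB, 2 rose and 2 fell in allogeneic against syngeneic mice (median -0.06), and 4 rose and 1 fell in syngeneic against control mice (median 0.54). Cd44, which binds osteopontin and hyaluronan, rose in the first comparison by 2.06 ± 0.41, with means of 35.2 CPM in allogeneic, 8.44 CPM in syngeneic and 3.49 CPM in control mice. Itgb3, the integrin chain of the classical osteopontin receptor, fell by 1.11, and Sdc4, which binds GPNMB, rose by 0.65 ± 0.12. Itgav, the chain that pairs with Itgb3, rose by 0.96 ± 0.11 in syngeneic against control mice. None of the 4 MiT transcription factor genes, which drive lysosomal genes and Gpnmb, was called in allogeneic against syngeneic mice (median -0.18, with 0 higher and 2 lower at an unadjusted p under 0.05, 0 called by DESeq2 and 1 higher by limma-voom). In syngeneic against control mice (median -0.68) Tfeb and Tfe3 fell by 0.96 and 0.80, and Mitf rose by 0.53 ± 0.15.

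Around Igf1, 0 of 12 insulin-like growth factor axis genes were called in allogeneic against syngeneic mice (median -0.17, with 2 higher and 0 lower at an unadjusted p under 0.05, 0 by DESeq2, 1 higher and 1 lower by limma-voom). In syngeneic against control mice 5 rose and 1 fell (median 1.29). Igf2, a growth factor the choroid plexus also makes, rose by 5.22 ± 0.94 there and averaged 3.66 CPM in allogeneic, 10.4 CPM in syngeneic and 0.282 CPM in control mice. Its order over the groups was that of the choroid plexus markers, and also that of the summed cell cycle genes given below. The source of the Igf2 values was not tested. The receptor Igf1r averaged 17.5, 20.8 and 26.2 CPM in these groups and was not called in either comparison.

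Of 26 other genes known from disease-associated microglia, 18 rose and 3 fell in allogeneic against syngeneic mice (median 0.75), and 17 rose and 3 fell in syngeneic against control mice (median 0.86). B2m, Cd52 and Fth1, for MHC class I light chain, a surface glycopeptide and ferritin, rose by 1.81 ± 0.07, 1.92 ± 0.09 and 1.34 ± 0.06 in the first. The 3 that fell there were Cd68, Ank and Cadm1. Ctsb, Ctsl and Ctsz are also counted among the lysosomal cysteine proteases, Cd63 among the tetraspanins and Lyz2 among markers of bone marrow-derived macrophages. These lists are thus not separate support. Trem2 averaged 747, 845 and 2058 CPM in allogeneic, syngeneic and control mice. It was not called in the first comparison and fell in the second. Of 16 homeostatic microglia genes, 0 rose and 13 fell in allogeneic against syngeneic mice (median -0.44), and 0 were higher at an unadjusted p under 0.05, by DESeq2 or by limma-voom. In syngeneic against control mice 6 rose and 8 fell (median -0.19), and Tmem119 fell by 1.56. Summed, the homeostatic genes stood at 43464 to 45397 CPM in allogeneic, 61059 to 64332 CPM in syngeneic and 66220 to 76525 CPM in control libraries.

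Transcripts of other cells moved with the groups as well. Monocyte markers, 6 of 10 of them tested, summed to 290 to 463 CPM in allogeneic, 40.2 to 72.3 CPM in syngeneic and 19.9 to 23.3 CPM in control libraries, and 3 rose and 0 fell in allogeneic against syngeneic mice (4 and 1 at an unadjusted p under 0.05, 4 and 0 by DESeq2 and by limma-voom). Most of the allogeneic sum was Ms4a4c, an interferon-inducible gene, at 229 CPM. The classical monocyte genes Ly6c2 (1.60, 0.122 and 0.0381 CPM) and Ccr2 (4.0, 8.01 and 9.48 CPM) were low in allogeneic, syngeneic and control mice. Plac8 averaged 77.9, 11.9 and 1.39 CPM and Fn1 26.2, 1.42 and 0.188 CPM in these groups, and both rose in allogeneic against syngeneic mice. Markers of bone marrow-derived macrophages summed to 3952 to 4521 CPM in allogeneic, 1812 to 1889 CPM in syngeneic and 1520 to 1831 CPM in control libraries, with 6 of 10 higher and 2 lower in allogeneic against syngeneic mice. Among them Lyz2 averaged 1933.5, 676 and 213 CPM and Cybb 834, 105 and 8.54 CPM in allogeneic, syngeneic and control mice. Ms4a7 averaged 23.0, 4.23 and 0.470 CPM and Clec12a 4.94, 1.02 and 0.192 CPM. The 2 lower ones were Tmem176a (161, 243 and 386 CPM) and Tmem176b (304, 493 and 816 CPM). Spp1, Gpnmb, Lgals3, Fabp5 and Apoe are also made by macrophages that enter the brain, and the part of such cells in the members' values was not tested. Border-associated macrophage markers summed to 239 to 292 CPM in allogeneic, 241 to 319 CPM in syngeneic and 378 to 453 CPM in control libraries, and most of that sum was Stab1, at 146, 251 and 402 CPM. Of 8 tested markers of that list, 4 rose and 1, Stab1, fell in allogeneic against control mice (median 1.92), 3 rose and Stab1 fell in syngeneic against control mice (median 2.19), and Siglec1 rose and Stab1 fell in allogeneic against syngeneic mice. Mrc1 averaged 17.8, 19.2 and 1.72 CPM and Siglec1 82.4, 6.37 and 0.83 CPM in allogeneic, syngeneic and control mice, and Lyve1 had 0 counts in allogeneic and control libraries.

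Cell cycle genes summed to 795 to 895 CPM in allogeneic, 1029 to 1203 CPM in syngeneic and 191 to 241 CPM in control libraries. Their sum was, as Igf1 was, highest in syngeneic libraries. Of 14 tested, 5 (Mcm3 to Mcm7) fell and 0 rose in allogeneic against syngeneic mice. In allogeneic against control mice, where Igf1 was not called, 13 rose and 0 fell. Neuron markers were at 7.31 to 12.1, 7.17 to 14.0 and 1.67 to 3.10 CPM, oligodendrocyte lineage markers at 131 to 145, 115 to 177 and 146 to 153 CPM, and endothelial and mural markers at 21.6 to 35.9, 16.8 to 26.6 and 30.3 to 44.7 CPM in allogeneic, syngeneic and control libraries. T and NK cell markers summed to at most 2.46, 1.204 and 0.471 CPM, B cell markers to at most 0.441, 1.18 and 0.901 CPM, neutrophil markers to at most 7.21, 8.31 and 28.1 CPM, and erythroid markers to at most 6.27, 8.27 and 14.7 CPM in the same order. Their part in the members' values was not tested.

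**Figure D4:**
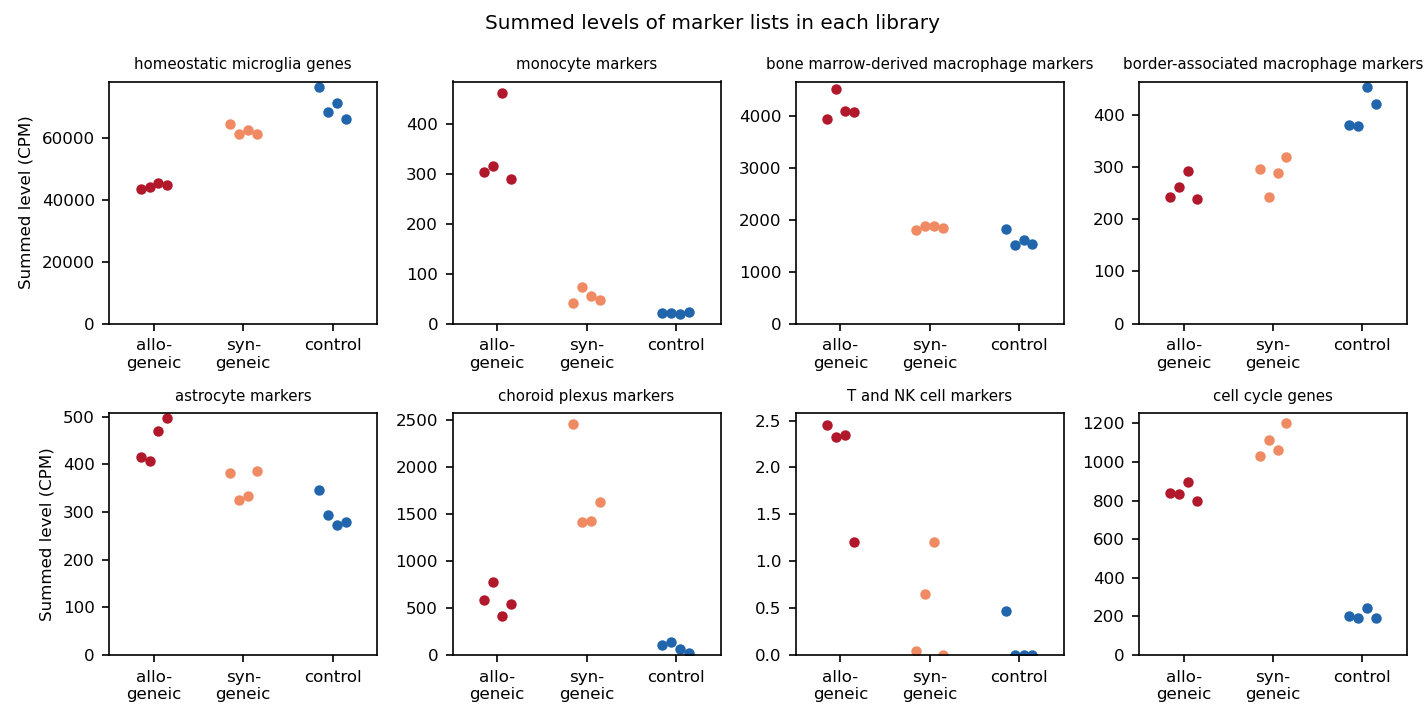
Summed level in CPM (linear axes from 0) of homeostatic microglia genes, of markers of other cells and of cell cycle genes, with 1 point per library of allogeneic, syngeneic and control mice. Homeostatic genes were lowest in allogeneic libraries (43464 to 45397 CPM), monocyte and bone marrow-derived macrophage markers were highest there, and choroid plexus markers (1414 to 2455 CPM) and cell cycle genes were highest in syngeneic libraries.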

How the data were processed

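The authors deposited 1 table of raw read counts per gene symbol for 12 libraries, 4 per group, and its values are whole numbers. The submitters' processing notes name Trimmomatic 0.36, STAR 2.5.2b and the build mm9. Per the labels' protocols, microglia were sorted by FACS, RNA was isolated with a Picopure kit, and samples with an RNA integrity of at least 8 were sequenced. How reads were counted, with which annotation and strand setting, is not given in the sources used here, so reads of antisense or near-identical genes may be mixed. In GENCODE M21, Cd9 and Ch25h overlap an opposite-strand gene and Spp1 a same-strand one, and none of these is a row of the table.

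CPM and fold changes were derived here from these counts with edgeR 4.0.16 (R 4.3.3). The table held 18018 genes with any count, of which filterByExpr (minimum count 10) kept 12695. A single robust quasi-likelihood fit of group means over all 12 libraries with TMM factors gave the 3 comparisons and the difference of the 2 steps, with Benjamini-Hochberg adjustment over all genes tested and a call at 0.05. SE is the log2 fold change divided by the root of F, and 95% intervals are normal intervals from it. Floors take 3 counts over a group (0.0217 CPM in allogeneic, 0.0179 in syngeneic and 0.0179 in control libraries) and cover counting error only. Alternatives were RLE factors, library totals, tests by DESeq2 1.42.0 and limma-voom (limma 3.58.1), no filter or at least 1 CPM in 4 libraries, the compared groups alone, the replicate number as a block, a GC and length offset, and each library left out. Lengths and GC content came from GENCODE M21 on another build than mm9, by symbol (23298 direct, 668 by synonym, 362 of 24328 unmatched), and no coordinates were taken from it. Promoters are RefSeq's on GRCm38.p6.

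The members and all gene lists were chosen with earlier results of these data known. Named genes are the 10 members, per pathway list the up to 3 genes with the smallest p in each of allogeneic against syngeneic and syngeneic against control, per member the 3 nearest profiles, and for marker lists the most abundant gene and genes that check the cell type. Trem2 and the other disease-associated genes that fell in allogeneic against syngeneic mice are named beside these. Log2 fold changes of list genes are given where that rule names them. Libraries are separate mice per the labels, and no batch is given.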

Additional observations from a re-analysis of the deposited data

Results flagged for a closer look

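In groups of 4 mice, a library was picked out where its gap to the nearest other one, divided by the range of the group, was over Dixon's 95% critical value for 4 samples. The 10 genes gave 30 such groups and the marker lists 39, and chance picks out about 1 in 20. Among the members, Apoe was highest in syngeneic replicate 4 (3207 CPM), Ch25h was highest in the same mouse (7.63 CPM), and Gpnmb was present in control replicate 3 alone of its group (0.411 CPM). Neutrophil markers summed to 8.31 CPM in syngeneic replicate 4 as well, above the other syngeneic mice. Without syngeneic replicate 4, the log2 fold change in allogeneic against syngeneic mice was 1.73 for Apoe and 3.59 for Ch25h, both called by edgeR.

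Among the marker lists, monocyte markers were highest in allogeneic replicate 3 (463 CPM). That mouse was the highest of its group for Gpnmb, Cd9 and Ch25h, replicate 4 for Apoe, Spp1, Lpl, Lgals3, Igf1 and Fabp5, and replicate 2 for Cst7. T and NK cell markers were lowest in allogeneic replicate 4 (1.21 CPM) and highest in control replicate 1 (0.471 CPM). Neuron markers were highest in syngeneic replicate 2 (14.0 CPM), B cell markers in syngeneic replicate 1 (1.18 CPM) and erythroid markers in control replicate 4 (14.7 CPM).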

How the results depend on the processing

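Of 825 recomputed values of the members, 776 kept their direction and side of the threshold, 11 passed it only in the alternative, 23 no longer passed it and 15 changed sign. The count of members called lower in allogeneic against syngeneic mice was 1 (Igf1) with library totals, with no filter, by DESeq2, by limma-voom and with the compared groups alone, and 0 to 1 with a library left out. In syngeneic against control mice the count of lower members was 0 with the filter of 1 CPM, which leaves Gpnmb out, by limma-voom, with the replicate block, with the GC and length offset and with the compared groups alone, and 0 to 1 with a library left out. The other counts of called members stayed within 1.5 times of those reported. Among them, the count of higher members in syngeneic against control mice went from 7 to 5 with the GC and length offset.

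Sign changes were in values that were not called, except Cd9 in syngeneic against control mice, which was -0.0887 with the GC and length offset. Apoe in syngeneic against control mice was 0.0186 with RLE factors, 0.0185 by DESeq2 and 0.297 with that offset, and -0.187 to 0.0731 with a library left out. Igf1 in allogeneic against control mice was 0.11 by limma-voom. The difference of steps was 0.30 for Cd9 with the offset and -0.0774 to 0.0332 with a library left out, and -0.63 to 1.37 for Ch25h with a library left out. The cause of these changes was not tested.

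Libraries that share a number did not deviate together (correlations from -0.015 to 0.0317), so the numbers were not read as pairs. With the replicate block 2002 genes were called between allogeneic and syngeneic mice (2098 without it), 6507 between syngeneic and control mice (6610) and 7200 between allogeneic and control mice (7273), and among the members the block ended only the lower call of Gpnmb.

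Depth limits Gpnmb, Igf1, Fabp5 and the control values of Ch25h, which rest on few counts. With 4 mice per group their intervals are wide. Marrow and T cells, and irradiation if control mice had none, differ together between transplanted and control mice and cannot be told apart.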
